A study of Mus musculus with 4 samples.

Results

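Oxidative phosphorylation (OXPHOS) is carried out in the inner mitochondrial membrane by 5 protein complexes, and the RNA of their subunits was examined in mouse 2-cell embryos cultured with or without dimethyl sulfoxide (DMSO). The subunit genes were chosen by symbol. They were the protein-coding genes named mt-, the Nduf genes of the a, b, c, s and v series, Cox4 to Cox8, Uqcr, Atp5, the 4 succinate dehydrogenase genes Sdha to Sdhd, Cyc1 and Cycs. Of the 30049 genes in the expression table, 98 were members. The mitochondrial genome encodes 13 of them and the nuclear genome 85, of which 35 belong to complex I, 4 to complex II, 9 to complex III, 19 to complex IV and 17 to complex V, and the last is cytochrome c. Ndufa4 was counted with complex IV, of which its protein is a subunit. The Atp5 genes were counted with complex V by symbol alone, Atp5s among them. Expression is given as TPM (transcript abundance per length unit and per library total), in which levels of different genes can be compared.

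Wild-type embryos came from matings of BDF1 mice (the F1 of C57BL/6 and DBA/2, 8 to 12 weeks old) after stimulation with gonadotropins. Zygotes taken 18 h after the hCG injection (chorionic gonadotropin, which triggers ovulation) were kept for 24 h in the embryo medium KSOM, which held 2% DMSO for the treated group and none for the control group. There were 2 control and 2 DMSO libraries, made from pooled embryos with 50 embryos named for a group, and it is not stated whether each library held 50. Nothing says that the libraries of a group came from separate cultures, so the p-values measure the spread between these libraries, which may be technical.

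The respiratory complexes pass electrons from NADH (complex I) and succinate (complex II) through complex III and cytochrome c to oxygen (complex IV), and the proton gradient that this builds drives ATP synthesis by complex V. Complexes I, III, IV and V are assembled from subunits of both genomes, whereas complex II and cytochrome c are wholly nuclear encoded. Mitochondria of the early embryo come from the oocyte. The mitochondrial mRNAs are cut from long transcripts that cover nearly a whole strand of the circular genome, and each nuclear subunit gene is transcribed on its own.

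The 13 mitochondrial mRNAs took a larger share of the RNA in DMSO-treated embryos, and the 85 nuclear genes a smaller one. The mitochondrial mRNAs held 10.8% and 12.4% of the listed TPM in control and 15.3% and 21.7% in DMSO. The nuclear subunit genes held 1.39% and 1.63% in control and 1.02% and 1.12% in DMSO. Both measures separated the groups without overlap. A larger mitochondrial share lowers every other TPM value, so the nuclear share was also taken of the TPM outside the mitochondrial genome, where it was 1.56% and 1.86% in the control and 1.20% and 1.43% in the DMSO libraries, again without overlap. With 2 libraries against 2, the smallest p of a two-sided exact permutation test is 0.333, and the shares are given as values with no test. The libraries were pools of whole embryos, in which fewer cells of a kind and less RNA per cell cannot be told apart.

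**Figure D1:**
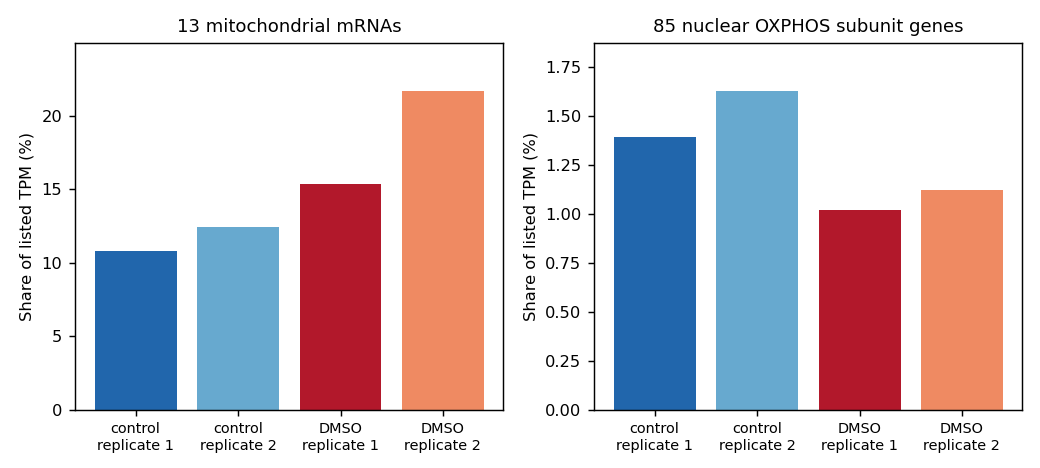
Share of the listed TPM (%) held by the 13 mitochondrial mRNAs (left) and by the 85 nuclear OXPHOS subunit genes (right) in each library, both axes starting at 0. The DMSO libraries stood at 15.3% and 21.7% against 10.8% and 12.4% for the mitochondrial mRNAs, and at 1.02% and 1.12% against 1.39% and 1.63% for the nuclear genes.

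Most nuclear subunit genes had lower values in DMSO-treated embryos, and 29.3% of those tested passed the test for a decrease. Of the 85 genes, 82 had a mean of at least 1 TPM and were tested by limma on log2(TPM + 1), on which scale the change of low genes is understated. The log2 fold change (DMSO minus control) was below 0 for 67 of them and above 0 for 15. At an adjusted p under 0.05, 24 were down-regulated and 2, Cox6b2 and Cox6a2, were up-regulated. Of all 12038 genes tested, 14.1% were called lower. In the other direction 6.42% of all genes tested were called, and for calls in either direction the background was 20.5%. These backgrounds, also used below, are those of the filter of 1 TPM, and they were higher among abundant genes. With the filter at 5 TPM, 22.5% of 7470 genes were called lower, beside 21 of 73 nuclear members. The median log2 fold change of those 7470 genes was -0.19. Both DMSO libraries lay below both control libraries for 49 of the 82 (background 38.7%) and above them for 11 (background 31.1%), and the groups overlapped for 22. The median log2 fold change of the 82 was -0.64, and that of all tested genes was -0.09. The untested members were Uqcrc1, a core subunit of complex III with 0.421 and 1.63 TPM in the control and 0.261 and 1.11 TPM in the DMSO libraries, the lung isoform Cox4i2, which was listed at or near 0 throughout, and the muscle isoform Cox8b, which was listed at 0 in every library. Ndufa4l2 and a further Ensembl gene of the name Atp5o were not analysed here.

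Of all tested genes, 1697 were down-regulated and 773 up-regulated, a split that moved to 1262 and 949 after median-ratio scaling, to 1121 and 1076 after quantile normalization and to 1316 and 890 after scaling without the mitochondrial genes. The nuclear members called lower numbered 17, 14 and 19 under these scalings, beside 10.5%, 9.31% and 10.9% of all genes tested, and their median stayed below 0. No gene in the table, member or not, was called by limma when control replicate 1, control replicate 2 or DMSO replicate 1 was left out, with 3745, 2602 and 3078 genes at an unadjusted p under 0.05, and the calls rest on having these 3 libraries together. Without DMSO replicate 2, 17 of the nuclear members were called lower, beside 10.6% of all genes tested.

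**Figure D2:**
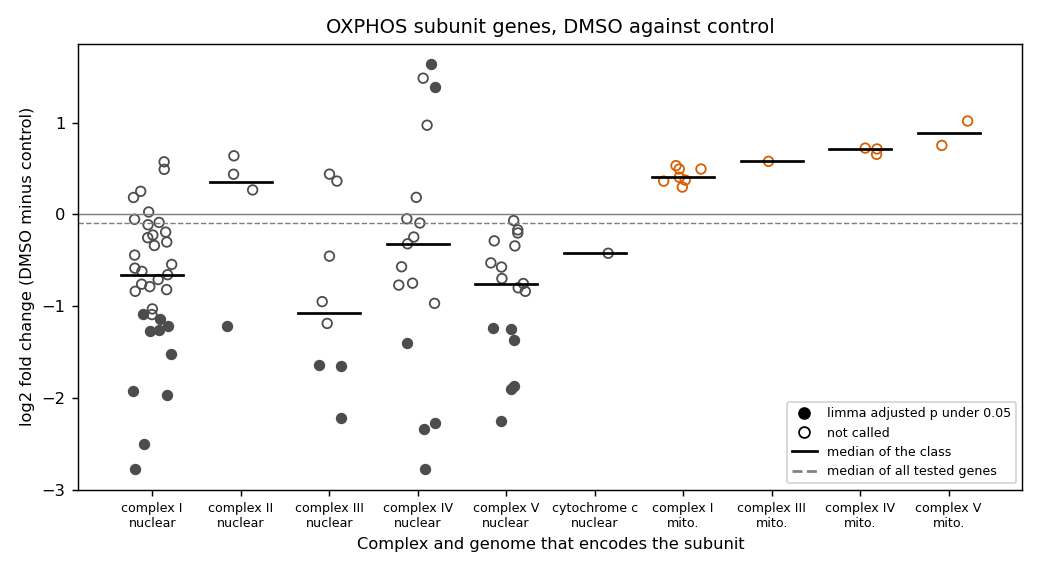
Log2 fold change, DMSO minus control on the log2(TPM + 1) scale, of each tested OXPHOS subunit gene by complex and genome. Filled points have a limma adjusted p under 0.05, horizontal bars are medians and the dashed line is the median of all tested genes (-0.09). All 17 nuclear genes of complex V lie below 0 on the deposited scale and all 13 mitochondrial mRNAs above it, with no filled point among the mitochondrial mRNAs.

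Subunit genes of the same complex were expressed at very different levels. In the nuclear set, 65 of 85 had a mean of at least 10 TPM and 28 of at least 100 TPM. Among all genes of the table, 8 of the 13 mitochondrial mRNAs were among the 20 with the highest mean, and the mitochondrial mRNA with the lowest mean ranked number 80. The nuclear members with the highest means were Atp5b, the catalytic beta subunit of ATP synthase, and Cox8a, a small subunit of complex IV. Atp5b (ENSMUSG00000025393, chr10:128083273-128090391, plus strand) had 1349.7 and 1198 TPM in the control and 1258 and 1171 TPM in the DMSO libraries. Cox8a (ENSMUSG00000035885, chr19:7215153-7217616, minus strand) had 1037 and 958 TPM in the control and 1085 and 1186 TPM in the DMSO libraries. The 2 groups overlapped for Atp5b and did not for Cox8a, and neither gene passed the test (limma adjusted p = 0.847 and 0.576). The log2 fold change of Atp5b was -0.07, and it was above 0 under median-ratio scaling (0.035), under scaling without the mitochondrial genes (0.030) and without control replicate 1 (0.019).

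**Figure D3:**
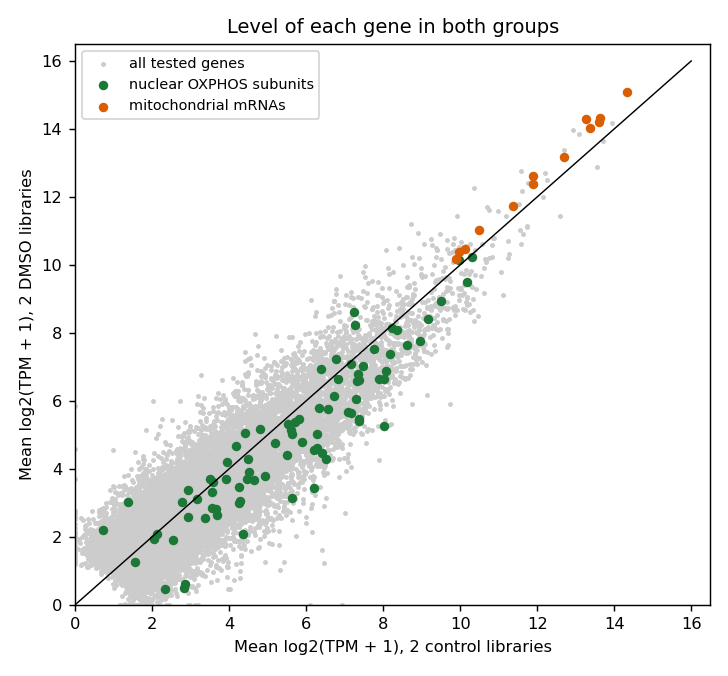
Mean log2(TPM + 1) of each tested gene over the 2 control libraries (horizontal axis) and the 2 DMSO libraries (vertical axis), with the line of equal values. The 13 mitochondrial mRNAs lie at the upper end and above the line, and 67 of the 82 nuclear subunit genes lie below it.

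Complex I, which oxidises NADH, had 10 of its 35 nuclear genes down-regulated (background 14.1%) and none up-regulated (background 6.42%). Values were below 0 on the log2 scale for 30 and above 0 for 5, with a median of -0.66. The nuclear genes of the core, which carry the flavin and the iron-sulphur clusters, had a median of -1.03, and 3 of them, Ndufs8, Ndufs1 and Ndufs7, were called lower. Ndufs8 (ENSMUSG00000059734, chr19:3908863-3912774, minus strand), which binds a pair of iron-sulphur clusters, had 66.5 and 105 TPM in the control and 15.7 and 28.8 TPM in the DMSO libraries. The log2 fold change was -1.93 ± 0.39 (SE), with a limma adjusted p of 0.0259. Every control value was above every DMSO value. Ndufs1, the largest core subunit, had 16.8 and 19.3 TPM in the control and 5.64 and 8.46 TPM in the DMSO libraries, and its log2 fold change of -1.26 ± 0.32 passed the test (limma adjusted p = 0.0407). Ndufs7, which carries the terminal cluster of the electron path, had 26.2 and 33.2 TPM in the control and 10.9 and 15.0 TPM in the DMSO libraries, with its log2 fold change at -1.15 ± 0.31 (limma adjusted p = 0.0454). The core gene Ndufv1, which binds NADH and the flavin, was at -1.03 on the log2 scale and was not called (limma adjusted p = 0.109), and its neighbour in the NADH module Ndufv2 had -0.79 (limma adjusted p = 0.0918). Ndufs3, of the module that passes electrons to ubiquinone, had -0.76 (limma adjusted p = 0.0919).

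The accessory subunits of complex I, which surround the core and serve its stability and assembly, spread more widely. Of the 28 nuclear accessory genes, 7 were called lower (background 14.1%) and the median was -0.49, with values from -2.78 to 0.57. With the filter at 5 TPM the background was 22.5%. The largest decrease in complex I among genes of at least 10 TPM was that of Ndufb7 (ENSMUSG00000033938, chr8:83566671-83571626, plus strand), a subunit of the membrane arm. Ndufb7 had 55.3 and 96.8 TPM in the control and 6.32 and 14.9 TPM in the DMSO libraries, and its log2 fold change was -2.78 ± 0.46 (limma adjusted p = 0.0209). The groups were far apart, with a mean 7.16-fold higher in control embryos. Ndufa2 (ENSMUSG00000014294, chr18:36742332-36744557, minus strand), an accessory subunit of the matrix arm and the nuclear gene of the complex with the highest mean, had 213.7 and 222.5 TPM in the control and 150.5 and 221.8 TPM in the DMSO libraries. Its DMSO replicate 2 lay within the control range, its log2 fold change was -0.25 (limma adjusted p = 0.521), and without DMSO replicate 1 the value was 0.025. At the other end stood Ndufa1 (ENSMUSG00000016427, chrX:37187588-37191163, minus strand), a small X-linked subunit needed for assembly of the complex. Ndufa1 had 72.9 and 92.4 TPM in the control and 131 and 115 TPM in the DMSO libraries, higher in both DMSO libraries than in either control library, with a log2 fold change of 0.57 ± 0.26 that did not pass the test (limma adjusted p = 0.151).

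Complex II, the succinate dehydrogenase of the citric acid cycle, has 4 subunits, and they did not move alike. Sdhd (ENSMUSG00000000171, chr9:50596357-50603812, minus strand), a membrane anchor, had 15.7 and 21.4 TPM in the control and 7.69 and 7.05 TPM in the DMSO libraries. It was down-regulated, with its log2 fold change at -1.21 ± 0.31 (limma adjusted p = 0.0403). Both DMSO values were below both control values. Sdha (ENSMUSG00000021577, chr13:74322254-74350280, minus strand), the flavoprotein that oxidises succinate, had 23.8 and 17.0 TPM in the control and 35.1 and 29.0 TPM in the DMSO libraries, with its log2 fold change at 0.64 ± 0.30 (limma adjusted p = 0.161). The DMSO libraries were also the higher ones for Sdhb, the iron-sulphur subunit, and Sdhc, the other anchor, with log2 fold changes of 0.27 and 0.44 that were not called. The summed TPM of the complex was 61.0 and 59.3 in the control and 70.3 and 62.7 in the DMSO libraries.

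In complex III, which passes electrons from ubiquinol to cytochrome c, 3 of the 8 tested nuclear genes were down-regulated (background 14.1%) and the median log2 fold change was -1.07. Uqcrfs1 (ENSMUSG00000038462, chr13:30540308-30545362, minus strand), the Rieske iron-sulphur protein, had 81.6 and 99.6 TPM in the control and 12.0 and 28.4 TPM in the DMSO libraries. The control mean was 4.48 times the DMSO mean, and the log2 fold change was -2.22 ± 0.42 (limma adjusted p = 0.0239). The groups did not overlap. The small subunits Uqcr11 and Uqcrb were the other called genes, and these 2 were picked for naming after their values were seen (log2 fold changes -1.65 and -1.64, limma adjusted p = 0.0239 and 0.0488). Uqcr10 (ENSMUSG00000059534, chr11:4701973-4704342, minus strand), a small subunit and the most abundant nuclear gene of the complex, had 395 and 625 TPM in the control and 154 and 307 TPM in the DMSO libraries, without overlap. Its log2 fold change of -1.19 ± 0.40 was not called (limma adjusted p = 0.0778). Uqcrh (ENSMUSG00000063882, chr4:116066965-116075071, minus strand), the hinge protein that helps cytochrome c to bind, had 102 and 118 TPM in the control and 143 and 155 TPM in the DMSO libraries. Both DMSO libraries were above both control libraries, with a log2 fold change of 0.44 that was not called (limma adjusted p = 0.222). Cycs (ENSMUSG00000063694, chr6:50562563-50566538, minus strand), the somatic cytochrome c that carries electrons on to complex IV, had 38.5 and 33.0 TPM in the control and 26.5 and 26.2 TPM in the DMSO libraries. The DMSO libraries were lower, and the log2 fold change of -0.42 ± 0.27 was not called (limma adjusted p = 0.267). A look-alike gene on chromosome 19, Gm10053, of which 96.6% of the 31-base words occur in Cycs, was listed higher than Cycs, at 128 and 136 TPM in the control and 107 and 79.9 TPM in the DMSO libraries, so the level of Cycs is uncertain. With it added, Cycs had 166 and 168 TPM in the control and 133 and 106 TPM in the DMSO libraries (log2 fold change -0.49, limma adjusted p = 0.193).

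Complex IV, the cytochrome c oxidase, held genes called in both directions, with log2 fold changes from -2.77 to 1.64. Of its 17 tested nuclear genes, 4 were down-regulated (background 14.1%) and 2 up-regulated (background 6.42%), and the median log2 fold change was -0.32. With the filter at 5 TPM these backgrounds were 22.5% and 10.3%. Cox7c (ENSMUSG00000017778, chr13:86044816-86046904, minus strand), a small structural subunit, had 198 and 342 TPM in the control and 25.3 and 54.5 TPM in the DMSO libraries. The log2 fold change was -2.77 ± 0.44 (limma adjusted p = 0.0198), a mean 6.76 times higher in control embryos. The lowest control value was above the highest DMSO value. Cox6b2 (ENSMUSG00000051811, chr7:4751792-4753094, minus strand), the testis isoform of a subunit that faces the intermembrane space, moved the opposite way. It had 191 and 117 TPM in the control and 391 and 396 TPM in the DMSO libraries, and its log2 fold change was 1.39 ± 0.30 (limma adjusted p = 0.03). The DMSO libraries lay close together and above both control libraries. Cox6a2 (ENSMUSG00000030785, chr7:128205435-128206387, minus strand), a heart and muscle isoform, was low in all libraries, with 1.99 and 1.27 TPM in the control and 8.55 and 5.89 TPM in the DMSO libraries. It was up-regulated, with its log2 fold change at 1.64 ± 0.36 (limma adjusted p = 0.0304).

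Several subunits of complex IV have a common isoform and a counterpart that is typical of muscle, lung or testis. The share of the tissue isoform did not overlap between the groups for the Cox6a, Cox6b, Cox7a and Cox7b pairs, and it did for Cox8a and Cox8c, with 0.328% and 0.340% in the control and 0.178% and 0.421% in the DMSO libraries. Cox6a2 made up 0.338% and 0.142% of its pair with Cox6a1 in the control and 2.05% and 1.01% in the DMSO libraries. Cox6b2 made up 59.9% and 36.8% of the summed TPM of Cox6b1 and Cox6b2 in control embryos, and 79.7% and 81.4% in treated ones. Its common partner Cox6b1 had 127 and 201 TPM in the control and 99.5 and 90.3 TPM in the DMSO libraries, with a log2 fold change at -0.75 (limma adjusted p = 0.115). The 2 isoforms thus stood in opposite directions, and only that of Cox6b2 passed the test. The muscle isoform Cox7a1 and the testis isoform Cox7b2 were both down-regulated, with 15.8 and 24.5 against 5.59 and 1.76 TPM and 4.55 and 8.14 against 0.218 and 0.625 TPM (log2 fold changes -2.28 and -2.34, limma adjusted p = 0.0289 and 0.0211). Cox7a1 went from 5.29% and 7.18% of its pair with Cox7a2 to 2.04% and 0.597%, and Cox7b2 from 2.28% and 6.32% of its pair with Cox7b to 0.0757% and 0.196%. For Cox7b2 the common partner Cox7b was higher in both DMSO libraries, with 195 and 121 TPM in the control and 287 and 319 TPM in the DMSO libraries, and it was not called (log2 fold change 0.97, limma adjusted p = 0.0639). The testis isoform Cox8c had at most 5.01 TPM in any library and overlapped between the groups (log2 fold change -0.05, limma adjusted p = 0.94). Its sign turned with the scaling, to 0.033 under median-ratio scaling and 0.029 without the mitochondrial genes, and to 0.47 without DMSO replicate 1. Isoforms made in testis rose in 1 case and fell in another, as did those made in muscle.

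**Figure D4:**
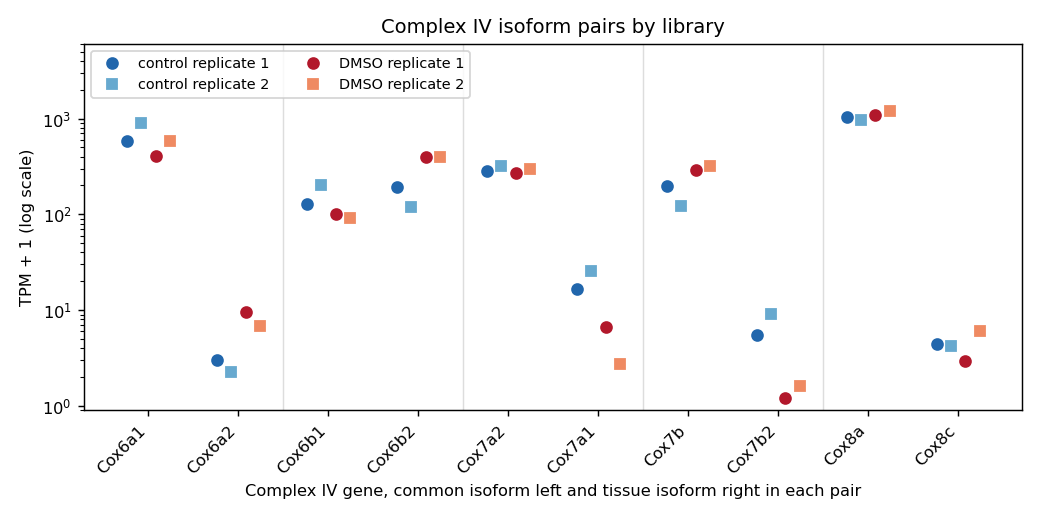
TPM + 1 on a log scale of 5 pairs of complex IV isoforms in each library, the common isoform on the left of a pair and the tissue isoform on the right, with one point for each library. Cox6b2 lies at 391 and 396 TPM in the DMSO libraries against 191 and 117 TPM in the control libraries, and Cox7a1 and Cox7b2 lie lower in both DMSO libraries.

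RNA of sperm was looked at beside the testis isoforms. Of 5 sperm markers, 2 were tested and both were up-regulated (6.42% of all genes tested were called higher), among them Prm2, a protamine of sperm chromatin and the most abundant of the 5, with 2.56 and 2.86 TPM in the control and 11.0 and 6.79 TPM in the DMSO libraries (log2 fold change 1.39, limma adjusted p = 0.0408). The 5 markers summed to 2.84 and 3.38 TPM in the control and 13.5 and 8.57 TPM in the DMSO libraries, the transition protein gene Tnp2 was listed at 0 in every library, and the part of sperm RNA in the Cox6b2 result was not tested. For the cells of the cumulus and follicle, 13 markers summed to 9.65 and 6.36 TPM in the control and 8.22 and 6.74 TPM in the DMSO libraries. Krt8, a keratin that embryos express as well, was the most abundant, with 6.20 and 4.47 TPM in the control and 2.68 and 3.53 TPM in the DMSO libraries. Amh and Inhba, which define granulosa cells, were listed at 0 in every library, whereas the steroid enzyme genes Cyp11a1 (0.781 and 0.802 against 2.10 and 0.958 TPM) and Cyp19a1 (0.422 and 0.494 against 1.25 and 1.08 TPM) and the prostaglandin synthase gene Ptgs2 (0.0758 and 0.0392 against 0.159 and 0.0969 TPM) were higher in both DMSO libraries. Of the 13, Krt8 and Cyp11a1 reached the filter of 1 TPM, and limma called 0 of these, with 0 at an unadjusted p under 0.05. Of the 16 markers of oocytes and 2-cell embryos, 14 were tested and 4 were up-regulated against the same background of 6.42%, namely Bmp15, Tcstv1, Tcstv3 and Zfp352, and the sum of the 16 was 1088 and 767 TPM in the control and 3146 and 2091 TPM in the DMSO libraries. Both DMSO libraries lay above both control libraries for 10 of the 14 (background 31.1%) and below them for 2 (background 38.7%). The median log2 fold change of the 14 was 0.89. Markers of both the oocyte and the 2-cell stage were detected in every library. The maternal gene Nlrp5 and the 2-cell gene Duxf3 were at or near 0 throughout, Padi6 was listed at 0 in DMSO replicate 1 and had at most 3.32 TPM, and Zp3 had at most 2.35 TPM. Of the 14 tested, 4 had log2 fold changes below 0 and were not called, namely Zp3 (-0.42) and the maternal kinase gene Mos (-0.54), with both DMSO libraries below both control libraries, and Padi6 (-0.80) and Zscan4d (-0.05), which overlapped. Mos had 5.14 and 5.51 TPM in the control and 3.83 and 2.94 TPM in the DMSO libraries. Krt8, Cyp11a1, Cyp19a1, Ptgs2, Zp3, Mos and the sums of the sperm markers and of the oocyte and 2-cell markers moved with the OXPHOS results, and their part in them was not tested.

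All 17 nuclear genes counted with complex V, the ATP synthase, had a log2 fold change below 0, with a median of -0.75. Of these, 6 were down-regulated (background 14.1%) and none up-regulated (background 6.42%). Atp5s, counted by symbol alone, was among the 6. Atp5j (ENSMUSG00000022890, chr16:84827866-84835625, minus strand), coupling factor 6 of the stalk, had 130.2 and 206 TPM in the control and 34.8 and 53.1 TPM in the DMSO libraries, and its log2 fold change was -1.90 ± 0.34 (limma adjusted p = 0.0223). The control libraries were both well above the DMSO libraries. Of the 3 major subunits of the catalytic head, the gamma subunit alone was called, and the difference between them was not tested. Atp5c1, the gamma subunit of the rotor, fell from 213 and 262 to 85.01 and 114 TPM (log2 fold change -1.25, limma adjusted p = 0.031), whereas the alpha subunit gene Atp5a1 had 84.1 and 75.2 TPM in the control and 48.4 and 62.1 TPM in the DMSO libraries and was not called (log2 fold change -0.53, limma adjusted p = 0.185). The beta subunit gene Atp5b overlapped between the groups, as given above. Under each other scaling 16 of the 17 kept their sign, with Atp5b the one above 0 after median-ratio scaling and after scaling without the mitochondrial genes, and Atp5e, the epsilon subunit, the one above 0 after quantile normalization (0.13). For Atp5g2 the value turned to 1.01 with its pseudogenes added (limma adjusted p = 0.0734). Its DMSO replicate 1, at 22.9 TPM, lay above both control libraries (13.3 and 14.7 TPM). In control replicate 1, Atp5l (36.4 TPM) and Atp5e (91.2 TPM) lay below both DMSO libraries, at 42.6 and 44.3 TPM and at 96.1 and 103 TPM. Atp5c1, Atp5a1, Atp5e, Atp5g2, Atp5l and Atp5s were picked for naming after their values were seen.

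The 13 mitochondrial mRNAs all had higher means in DMSO-treated embryos, and none passed the test, which held no replicate block. With such a block most of them were called higher, as given in the section on processing, but no label ties the replicate numbers. Their log2 fold changes ran from 0.30 to 1.02 with a median of 0.53, and the limma adjusted p ran from 0.129 to 0.42, while 0 of the 13 had an unadjusted p under 0.05. Both DMSO libraries were above both control libraries for 11 of the 13 (background 31.1%). The exceptions were mt-Atp6 and mt-Atp8, whose values in the libraries numbered 2 were far above those in the libraries numbered 1. All 13 were above 0 under every scaling and filter and with any one library left out. The median fell to 0.27 after quantile normalization and was 0.37 without DMSO replicate 2. Under that normalization 8 of the 13 moved furthest towards 0, with mt-Cytb at 0.035, mt-Nd4 at 0.078, mt-Co3 at 0.12, mt-Nd1 at 0.14 and mt-Co2 at 0.21 on the log2 scale, and mt-Atp6, mt-Atp8 and mt-Co1 at 0.27, 0.44 and 0.44.

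**Figure D5:**
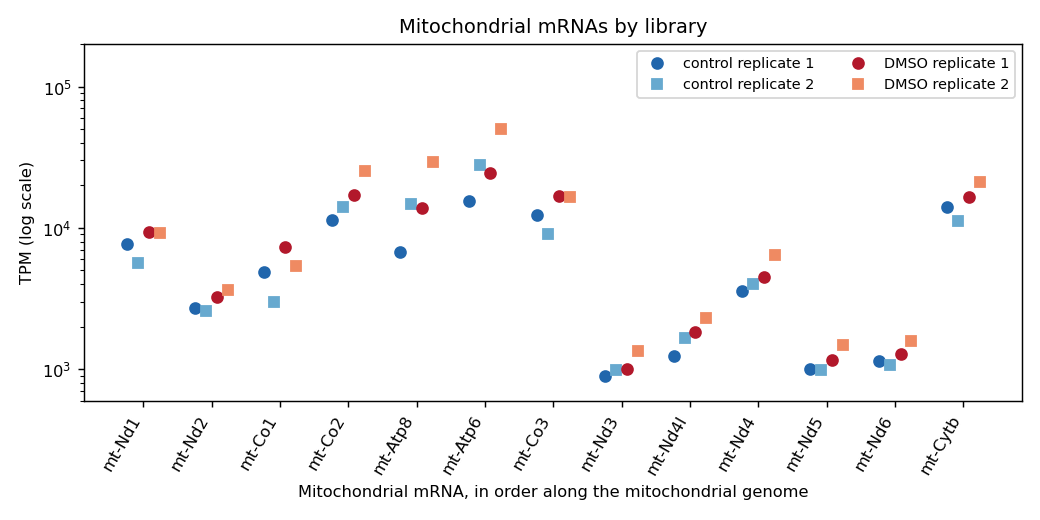
TPM on a log scale of the 13 mitochondrial mRNAs in each library, in their order along the mitochondrial genome. For 11 of the 13 both DMSO points lie above both control points, and for mt-Atp8 and mt-Atp6 control replicate 2 lies above DMSO replicate 1.

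Along the mitochondrial genome (GRCm38, chrM), 12 of the 13 genes lie on the plus strand and mt-Nd6 on the minus strand. The 7 complex I genes were higher in both DMSO libraries in every case (background 31.1%), and mt-Nd1 (chrM:2751-3707), a membrane subunit next to the ubiquinone site, had 7688 and 5673 TPM in the control and 9385 and 9239 TPM in the DMSO libraries (log2 fold change 0.50 ± 0.27, limma adjusted p = 0.212). The proton-pumping subunits mt-Nd2 (chrM:3914-4951), mt-Nd4 (chrM:10167-11544) and mt-Nd5 (chrM:11742-13565) had log2 fold changes of 0.37, 0.50 and 0.41. The shorter genes mt-Nd3 (chrM:9459-9806), mt-Nd4l (chrM:9877-10173) and mt-Nd6 (chrM:13552-14070) had 0.30, 0.53 and 0.36. None of these differed beyond the spread by the test, the lowest limma adjusted p among them being 0.194. On the minus strand, mt-Nd6 lay within the range of the other 6. mt-Cytb (chrM:14145-15288), the haem protein of complex III, had 14062 and 11156 TPM in the control and 16622 and 21067 TPM in the DMSO libraries (log2 fold change 0.58 ± 0.28, limma adjusted p = 0.17).

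The complex IV mRNAs encode the catalytic core of the oxidase. The copper-binding subunit mt-Co2 (chrM:7013-7696) had 11278 and 14087 TPM in the control and 17004 and 25157 TPM in the DMSO libraries, with its log2 fold change at 0.71 ± 0.31 (limma adjusted p = 0.132). The haem and copper subunit mt-Co1 (chrM:5328-6872) had 4849 and 2986 TPM in the control and 7315 and 5397 TPM in the DMSO libraries, with 0.72 ± 0.33 (limma adjusted p = 0.15). For mt-Co3 (chrM:8607-9390) the values were 12409 and 9001 TPM and 16782 and 16520.0 TPM, with 0.66 ± 0.28 (limma adjusted p = 0.129). All 3 had both DMSO libraries above both control libraries (background 31.1%). The replicates differed in order, since mt-Co1 was higher in the libraries numbered 1 and mt-Co2 in the libraries numbered 2.

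The pair of complex V mRNAs, which encode membrane subunits of the ATP synthase, had the highest fold changes of the 13 on the deposited scale and the widest spread. After quantile normalization mt-Co1 and mt-Atp8 were both at 0.44 on the log2 scale. There mt-Atp6, at 0.27, was below mt-Co1 and mt-Nd4l (0.42), among others. mt-Atp6 (chrM:7927-8607) had 15375 and 27886 TPM in the control and 24443 and 49829 TPM in the DMSO libraries, with its log2 fold change at 0.75 ± 0.45 (limma adjusted p = 0.243). mt-Atp8 (chrM:7766-7969) had 6694 and 14702 TPM in the control and 13761 and 29375 TPM in the DMSO libraries, with 1.02 ± 0.50 (limma adjusted p = 0.173). The replicate difference was as large as that between the groups. Replicate 2 was 1.81 times replicate 1 in control and 2.04 times in DMSO for mt-Atp6, and 2.20 and 2.13 times for mt-Atp8. These genes are read in different frames from one mRNA, and their reading frames share 43 bases at chrM:7927-7969 on the plus strand. The shared stretch is printed because it is why reads can be ambiguous between these neighbours, with the first 3 bases, the start codon of mt-Atp6, in capitals.
mt-Atp8 and mt-Atp6 overlap: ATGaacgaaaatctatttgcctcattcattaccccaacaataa
mt-Nd4l and mt-Nd4 share 7 bases in the same way, and mt-Nd5 and mt-Nd6 share 14 bases on opposite strands, which these libraries cannot separate because the kit used does not mark strand.

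Copies of the mitochondrial genome in nuclear chromosomes limit how well a single mitochondrial mRNA can be measured. Of the 31-base words of its transcript, 100% occur in transcripts of other genes for mt-Co2, 99.9% for mt-Co3, 99.5% for mt-Atp6, 98.9% for mt-Nd4l and 98.1% for mt-Nd3. The share was 63.9% for mt-Co1 and 62.8% for mt-Nd4, and it was 0% for mt-Nd1, of which every word is its own. A pair of look-alike genes held large values. Gm29216, a pseudogene on chromosome 1 that shares words with mt-Co1, was listed at 8914 and 4949 TPM in the control and 12699 and 8920.4 TPM in the DMSO libraries, above mt-Co1 itself in each library. Gm28438, also on chromosome 1 and nearly identical with mt-Nd3, was listed at 2467 and 4922 TPM in the control and 3818 and 7756 TPM in the DMSO libraries. The values of mt-Co1 and mt-Nd3 are uncertain to that extent. With the TPM of 9 look-alike genes added to the 13 mRNAs, the mitochondrial share was 12.3% and 13.7% in the control and 17.5% and 23.8% in the DMSO libraries, still without overlap. In a fit on summed values, chosen after the data were seen, all 13 stayed above 0 with none called, and the median log2 fold change was 0.57.

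The ratio of mitochondrial to nuclear subunit RNA was higher in DMSO-treated embryos, over all members and in each of the 4 mixed complexes. Over all members the summed mitochondrial TPM was 7.76 and 7.62 times the nuclear TPM in control, and 15.1 and 19.4 times that in DMSO. The control libraries lay close together and both DMSO libraries lay above them. For complex I the ratio was 10.1 and 7.37 in the control and 19.7 and 20.3 in the DMSO libraries. For complex III it was 15.96 and 8.45 in the control and 32.9 and 28.05 in the DMSO libraries, and for complex IV it was 7.93 and 5.92 in the control and 12.97 and 12.93 in the DMSO libraries. In each of these 3 complexes the groups did not overlap. Complex V had 5.14 and 9.27 in the control and 12.9 and 24.9 in the DMSO libraries, also without overlap but with replicates that differed as much as mt-Atp6 and mt-Atp8 did. Being taken within a library, the ratio does not depend on a scaling factor for that library. The difference between the median log2 fold change of the mitochondrial mRNAs and that of the nuclear genes was 1.17. It lay between 0.73 and 1.29 under every alternative tried.

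Promoters of the nuclear members were compared because 24 of the 82 tested members were called lower. RefSeq windows from 250 bases before to 50 bases after a start site (GRCm38.p6) were found for 69 of the 85 members. They were searched on both strands for GCATGCG, a core of the sites of NRF-1, for CCGGAAG, a core of ETS family sites such as those of GABP, and for AAGATGGC, a core of YY1 sites, all 3 factors being known regulators of respiratory genes. GCATGCG was found in 12 of 69 members (17.4%) and in 4.95% of 17491 protein-coding genes with a window. CCGGAAG was found in 16 members (23.2%) and in 12.9% of the genes, and AAGATGGC in 10 members (14.5%) and in 3.57% of the genes. On opposite strands GCATGCG overlaps itself within CGCATGCG, and CCGGAAG and AAGATGGC can overlap by the letters AAG. The median log2 fold change was -0.44 for tested members with GCATGCG and -0.72 for those without, -0.75 with CCGGAAG and -0.62 without, and -0.64 with AAGATGGC and -0.70 without. A match to these letters is a description and not a bound site.

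The windows of 3 members are printed, plus or minus strand as given and 5′ to 3′, with matches to the 3 motifs in capitals. Atp5j (chr16:84834927-84835226, minus strand, one of its 2 windows) is shown as a down-regulated gene that holds all 3 motifs, Cox7c (chr13:86046746-86047045, minus strand) as the complex IV gene of at least 10 TPM with the largest decrease, which holds none, and Cox6b2 (chr7:4753045-4753344, minus strand) as an up-regulated gene that holds none.
Atp5j: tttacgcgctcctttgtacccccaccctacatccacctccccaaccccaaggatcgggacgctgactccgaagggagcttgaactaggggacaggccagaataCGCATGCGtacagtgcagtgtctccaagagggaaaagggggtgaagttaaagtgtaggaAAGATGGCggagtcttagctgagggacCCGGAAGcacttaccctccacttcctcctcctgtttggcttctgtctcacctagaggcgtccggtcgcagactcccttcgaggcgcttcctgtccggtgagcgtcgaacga
Cox7c: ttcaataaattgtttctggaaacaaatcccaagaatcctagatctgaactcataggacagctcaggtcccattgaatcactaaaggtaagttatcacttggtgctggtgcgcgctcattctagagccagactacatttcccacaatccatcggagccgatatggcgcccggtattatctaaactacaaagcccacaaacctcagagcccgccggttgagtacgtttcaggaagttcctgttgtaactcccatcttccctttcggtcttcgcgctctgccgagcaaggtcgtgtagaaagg
Cox6b2: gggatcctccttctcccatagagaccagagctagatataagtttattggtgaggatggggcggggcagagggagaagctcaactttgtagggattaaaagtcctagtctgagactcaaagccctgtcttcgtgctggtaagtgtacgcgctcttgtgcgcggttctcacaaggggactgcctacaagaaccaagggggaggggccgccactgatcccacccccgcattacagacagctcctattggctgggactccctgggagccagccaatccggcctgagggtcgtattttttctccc
Down-regulation thus occurred with and without these letters in the window.

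Many OXPHOS mRNAs are short, so other coding genes of like length were set beside them. The 40 tested nuclear members with a longest transcript under 1000 bases had a median log2 fold change of -0.64, and 13 of them were called lower. The 672 other coding genes in this class had a median of -0.09, and 18.3% of them were called lower. Between 1000 and 2000 bases the 26 members had a median of -0.77 with 8 called lower, and the 1981 other genes had -0.18 with 19.2% called lower. From 2000 to 4000 bases 1 of 12 members was called lower, against 14.7% of 4262 other genes, and the medians were -0.31 and -0.13. Of the 4 members of 4000 bases or more 2 were called lower, against 11.7% of 3751 other genes, with medians of -0.96 and -0.0028. The median of the members was below that of the other genes in each of the 4 classes, a difference given with no test. Look-alike genes also touch the nuclear set, though less. The share of words found in transcripts of other genes was highest for Atp5g2, at 37.5%. Ndufa12, an accessory subunit of complex I, was down-regulated with 36.6 and 64.8 TPM in the control and 4.02 and 14.2 TPM in the DMSO libraries (log2 fold change -2.51, limma adjusted p = 0.0317), and it stayed so with its pseudogene Gm15920 added (-2.42, limma adjusted p = 0.0427). For Atp5g2, 1 of 3 genes for the c-ring of the ATP synthase, adding its pseudogenes turned the value from -0.20 to 1.01, and neither was called (limma adjusted p = 0.801 and 0.0734). Both genes were picked after their values were seen. Of the RNA of the 3 c-ring genes, Atp5g1 made up 87.4% to 92.0% in the 4 libraries.

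The factors that build the complexes were called in both directions. Of 46 assembly factor genes, 44 were in the table and 38 were tested. Values were below 0 on the log2 scale for 25 and above 0 for 13, and 11 were down-regulated and 2 up-regulated, with a median log2 fold change of -0.31. Over all genes tested, 14.1% were called lower and 6.42% higher, 6401 were below 0 and 5637 above 0, and the median was -0.09. The lowest assembly factor was Ndufaf1 (ENSMUSG00000027305, chr2:119655446-119662827, minus strand), which assembles the membrane arm of complex I, with 25.6 and 32.2 TPM in the control and 1.47 and 5.66 TPM in the DMSO libraries. On the log2 scale the fold change was -2.87 ± 0.50 (limma adjusted p = 0.0216). Both DMSO libraries were far below the control libraries. Highest was Sdhaf4 (ENSMUSG00000026154, chr1:23995939-24005656, minus strand), which helps Sdha to mature, with 18.0 and 9.66 TPM in the control and 102 and 49.8 TPM in the DMSO libraries. The log2 fold change was 2.34 ± 0.44 (limma adjusted p = 0.0239). Both DMSO libraries were above both control libraries. By complex, 5 of 13 factors for complex I were called lower, as were 2 of 5 for complex III, 3 of 14 for complex IV and 1 of 3 for complex V, while for complex II none of 3 was called lower and Sdhaf4 was called higher.

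Genes for making and keeping mitochondrial mRNA were called in both directions. Of 9 tested genes for mitochondrial transcription and mRNA stability, 3 were down-regulated and 1 up-regulated, beside 14.1% and 6.42% of all genes tested. Polrmt (ENSMUSG00000020329, chr10:79736123-79746581, minus strand), the mitochondrial RNA polymerase, had 151 and 193 TPM in the control and 26.4 and 38.8 TPM in the DMSO libraries, and its log2 fold change was -2.38 ± 0.30 (limma adjusted p = 0.0181). The groups were widely separated. Tefm, the elongation factor of that polymerase, and Slirp, which with Lrpprc stabilises mitochondrial mRNAs, were the other genes called lower (log2 fold changes -1.34 and -1.96, limma adjusted p = 0.031 and 0.0209). Mtpap (ENSMUSG00000024234, chr18:4375592-4397330, plus strand), the poly(A) polymerase of mitochondrial mRNAs, had 10.3 and 9.30 TPM in the control and 29.7 and 19.1 TPM in the DMSO libraries and was up-regulated (log2 fold change 1.21 ± 0.33, limma adjusted p = 0.0457). Among 8 nuclear regulators of OXPHOS genes, 5 were tested by limma and 0 were called, with 2 at an unadjusted p under 0.05, as were 4835 of all 12038 genes. These were Pprc1, a coactivator of the PGC-1 family, with 128 and 184 TPM in the control and 44.2 and 107 TPM in the DMSO libraries (log2 fold change -1.14, limma adjusted p = 0.107), and Nrf1. Nrf1, which encodes NRF-1, had 98.5 and 95.9 TPM in the control and 49.8 and 56.7 TPM in the DMSO libraries, without overlap (log2 fold change -0.86 ± 0.25, limma adjusted p = 0.054). Gabpa, the DNA-binding subunit of GABP, had -0.58 (limma adjusted p = 0.142), and Yy1 had -0.07 (limma adjusted p = 0.841). Gabpb1 was above 0, at 0.24 (limma adjusted p = 0.555). It had 144 and 97.0 TPM in the control and 141 and 138 TPM in the DMSO libraries, with overlap. Tefm, Slirp, Pprc1, Nrf1, Gabpa, Gabpb1 and Yy1 were named after their values were seen.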

How the data were processed

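The authors quantified reads with kallisto on the Ensembl GRCm38 (mm10) transcriptome and summed transcripts per gene with tximport, and they deposited one table of TPM values. The version of kallisto is not given in the sources used here. STAR, SAMtools and bedtools are also named in the submitters' processing notes, without a role. The authors used DESeq2 on estimated counts for their own test, and that test was not run here because TPM are not counts. The paper also lists mapped reads in bedgraph form among the deposited data, and these were not used here. TPM keep no depth, so the sequencing depth is not known from them and no counting error or detection limit was derived. Listed TPM added up to 768174 (control replicate 1), 780527 (control replicate 2), 772487 (DMSO replicate 1) and 799166 (DMSO replicate 2), with 18661, 18369, 18705 and 18952 genes above 0.

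Symbols and coordinates came from GENCODE M21 (GRCm38), which named 29668 of 30049 gene identifiers. Pseudogenes whose names match the symbols, 10 in number, were not members. Genes whose mean reached 1 TPM were fitted on log2(TPM + 1) by limma (version 3.58.1, R 4.3.3), using lmFit and trended eBayes (no replicate block, Benjamini-Hochberg adjustment over all tested genes, threshold 0.05), and the members were read from that fit. The fit was tested on simulated data, and no result given here rests on that check. Groups and replicate numbers came from the sample labels. Words of 31 bases were compared between GENCODE transcripts, and promoter windows were read from RefSeq. All else was done in Python 3.11.15 with pandas 2.3.3, numpy 2.4.6 and matplotlib 3.10.9.

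The members, lists and tests were chosen with earlier results of these data known. The genes named are the 13 mitochondrial mRNAs, the nuclear core of complex I, members called higher, tissue isoforms, and for each complex the nuclear gene with the highest mean and, from 10 TPM up, those with the lowest and highest log2 fold change. In the other lists they are the called genes with the lowest and highest change. Of the genes that this rule names, 1 is not reported here. Genes named otherwise are said to be so or stand as isoform partners, untested members or markers, and the rest of complexes I and II were named to complete the set. Alternatives were a pseudocount of 0.1, no filter, a stricter filter of 5 TPM, untrended eBayes, 3 scalings, the replicate block, leaving out each library, members with at most 50% shared words and, chosen after the data were seen, members summed with look-alike genes.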

Additional observations from a re-analysis of the deposited data

How the results depend on the processing

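Both medians kept their sign under the alternatives tried, and the number of calls did not hold. The median log2 fold change of the nuclear genes lay between -0.81 and -0.45, and that of the mitochondrial mRNAs between 0.27 and 0.63 over alternatives that kept all libraries, with 0.27 after quantile normalization as the one that moved by more than the spread between replicates. With one library left out it lay between 0.37 and 0.64. Nuclear members called lower numbered 24 (background 14.1%), and 14 after quantile normalization (background 9.31%). With the filter at 5 TPM, 21 of 73 nuclear members were called lower, nearer to the background, which was then 22.5%. Without a filter on low values limma called 0 of 22257 genes and so 0 members, with 5368 genes at an unadjusted p under 0.05. The cause was not tested.

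Leaving out one library gave 0 to 1883 calls by limma over all genes, with 2602 to 4754 genes at an unadjusted p under 0.05, and 0 to 17 nuclear members called lower. The lone library of a group is then assumed to vary like those of the other group. For the members named by rule, 405 of 491 values under an alternative kept their direction and side of the threshold, 63 kept the direction and lost the call, 16 kept the direction and gained a call, and 7 changed sign. Those were Atp5b (0.035 after median-ratio scaling, 0.030 after scaling without the mitochondrial genes, -0.15 to 0.019 with one library left out), Cox8c (0.033 and 0.029 under the same scalings, -0.56 to 0.47 with one library left out) and Ndufa2 (-0.53 to 0.025 with one library left out), none of which was called. Limiting the nuclear members to those with at most 50% shared words removed none.

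Replicate numbers are shared by the groups, but with 2 pairs and no label that ties them they were not taken as pairing. Control and DMSO libraries of one number deviated together from the means of their groups, with a correlation of 0.354 over the 12038 tested genes and of 0.157 over the 95 tested members, genes not being independent. With the replicate number as a replicate block limma called 5132 genes, 38 nuclear members lower (background 24.8%), 4 nuclear members higher and 10 of the 13 mitochondrial mRNAs higher (background 17.9%).

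TPM keep no depth, so the precision of low values such as those of Cox6a2, Cox7b2 and Cox8c cannot be judged from them. The 2 libraries in each group leave 2 residual degrees of freedom.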
